A study of Homo sapiens with 6 samples.

Results

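The promoters of MCM2, MCM3, MCM4, MCM5, MCM6 and MCM7 were examined for binding of E2F7 in IMR90, fibroblasts established from human fetal lung, by chromatin immunoprecipitation and sequencing (ChIP-seq). They were taken as the 2 kb on either side of 6 transcription start sites given in hg18 coordinates, and every E2F7 peak overlapping such a window was counted. This left 7 of 9481 peaks of growing cells, 6 of 10242 peaks of quiescent cells and 9 of 43648 peaks of Ras-induced senescent cells carrying a hairpin against RB, the retinoblastoma protein. These 22 peaks are part of 63371 in all. The labels name no treatment for the growing and the quiescent cells, and describe the senescent cells as infected with Ras and an RB hairpin. The protocol attached to every sample mentions an ER-Ras vector, hairpins and collection 4 days after tamoxifen, and does not say which of these the growing and quiescent cells received. Knockdown was by hairpin, and these files do not measure how much RB was left. Senescent cells that kept RB were not analysed here, so senescence and loss of RB cannot be told apart. Lists of the sample with an E2F7 hairpin, of the IgG ChIP and of the input were not analysed here. Each state had 1 library, so there is no replicate error and no test between states.

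MCM2 to MCM7 are the subunits of the ring-shaped replicative helicase. The ring is loaded onto origins of replication in G1, with the origin recognition complex, CDC6 and CDT1, and is later activated to unwind DNA together with CDC45 and the GINS complex. The MCM genes are textbook E2F targets that are switched on as cells enter the cycle and kept low in resting cells by RB family proteins bound to E2F. E2F7 is an atypical E2F that binds DNA without a DP partner and represses E2F target genes. In arrested and senescent fibroblasts the silencing of such replication genes is a well-known part of the cell cycle exit.

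Not every gene was read from the RefSeq promoter table (GRCh38.p14), and a gene left out is not thereby shown to be absent from it. Promoters were read there for 4 of the 6 genes: MCM2, MCM3, MCM6 and MCM7. Their promoters are shown because the E2F7 peaks lie over the hg18 starts given for these genes, which need not be the same bases as the RefSeq starts. Each runs 5′ to 3′ along the gene from 250 bases before the start to 50 after it, and capitals mark matches to the E2F site letters TTTCCCGC, TTTGGCGC, TTTCGCGC or TTTGCCGC on either strand. They were read at chr3:127598161-127598460 (plus strand), chr6:52284693-52284992, chr2:135876394-135876693 and chr7:100101348-100101647 (all minus strand). For MCM7, which has 3 RefSeq starts spread over 868 bp, the most upstream one is shown.
MCM2: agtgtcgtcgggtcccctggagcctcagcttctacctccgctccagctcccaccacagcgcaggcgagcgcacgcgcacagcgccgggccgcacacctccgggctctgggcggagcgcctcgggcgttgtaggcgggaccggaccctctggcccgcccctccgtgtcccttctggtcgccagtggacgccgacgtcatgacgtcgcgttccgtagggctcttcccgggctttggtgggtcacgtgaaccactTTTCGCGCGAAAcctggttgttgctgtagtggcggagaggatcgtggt
MCM3: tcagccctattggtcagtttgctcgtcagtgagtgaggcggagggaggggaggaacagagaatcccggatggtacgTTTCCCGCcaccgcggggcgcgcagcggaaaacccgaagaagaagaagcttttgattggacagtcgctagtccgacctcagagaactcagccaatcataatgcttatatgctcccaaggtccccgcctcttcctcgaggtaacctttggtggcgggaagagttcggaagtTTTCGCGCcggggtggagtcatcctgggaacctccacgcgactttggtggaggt
MCM6: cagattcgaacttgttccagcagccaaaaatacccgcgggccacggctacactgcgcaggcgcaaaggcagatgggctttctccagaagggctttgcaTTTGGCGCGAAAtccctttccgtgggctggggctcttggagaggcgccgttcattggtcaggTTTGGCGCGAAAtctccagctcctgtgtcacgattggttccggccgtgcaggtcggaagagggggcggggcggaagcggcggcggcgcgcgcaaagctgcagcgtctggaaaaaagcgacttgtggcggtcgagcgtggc
MCM7: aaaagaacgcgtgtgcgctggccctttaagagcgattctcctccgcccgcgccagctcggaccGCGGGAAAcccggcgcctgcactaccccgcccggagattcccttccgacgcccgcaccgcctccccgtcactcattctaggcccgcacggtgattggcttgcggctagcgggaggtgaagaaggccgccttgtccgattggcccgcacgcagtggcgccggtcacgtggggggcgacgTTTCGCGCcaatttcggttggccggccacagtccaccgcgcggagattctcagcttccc

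Of the 6 promoters read for these 4 genes, 3 of them from MCM7, 4 held E2F letters, and these are the 4 shown. In MCM6 there were 2 copies of the same 12 bases, TTTGGCGCGAAA, beginning 152 and 90 bases before the start, in each of which a TTTGGCGC overlaps a TTTCGCGC read on the other strand. MCM2 had 1 site of 12 bases, TTTCGCGCGAAA, beginning at base 3 after the start, where 2 matches of opposite strand overlap. MCM3 had TTTCCCGC 174 bases and TTTCGCGC 4 bases before its start, and MCM7 had TTTCCCGC on the opposite strand at 187 bases and TTTCGCGC at 9 bases before it. Of all 35116 promoters in the table, 3.31% held at least 1 such site and 0.125% held at least 2, overlapping matches being counted as 1. The promoters at the other MCM7 starts had 0 of these sites. CCAAT, a box common in cell cycle promoters, occurred at 3 places in MCM3, 3 in MCM7, 2 in MCM6 and 0 in MCM2. Of all promoters, 34.6% held at least 1, 10.6% at least 2 and 3.14% at least 3. GGGCGG, the GC box, occurred as 2 sites in MCM2, 1 in MCM6, 2 in MCM7 and 0 in MCM3. At least 1 was in 45.0% of promoters and at least 2 in 26.1%. TTTGAA, the cell cycle homology region, had no match in any of the 4 and was in 15.2% of promoters. GC content was 68.3% in MCM2, 57.3% in MCM3, 62.3% in MCM6 and 67.7% in MCM7, against a median of 58.7% for all promoters. The shares were not matched for GC content. Each motif was searched on both strands. These are letters in a window and not mapped binding sites.

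Every one of the 6 starts had an E2F7 peak in every list. Tiles of the same 4001 bp over the whole genome overlapped a growing peak in 1.47% of cases, a quiescent peak in 1.7%, an RB knockdown peak in 6.12% and a peak of all 3 lists in 0.222%. In tiles within 1 Mb of the 6 starts, with the starts' own windows left out, the shares were 2.77%, 3.37%, 10.3% and 0.568%. Tiles are not promoters, and the share of all promoters with a peak was not computed because no hg18 gene annotation was at hand. The start lay inside the strongest peak in all 18 combinations of gene and list, and the summit lay within 200 bp of it in 15 of 18. The 3 exceptions were the 3 lists at MCM7.

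**Figure D1:**
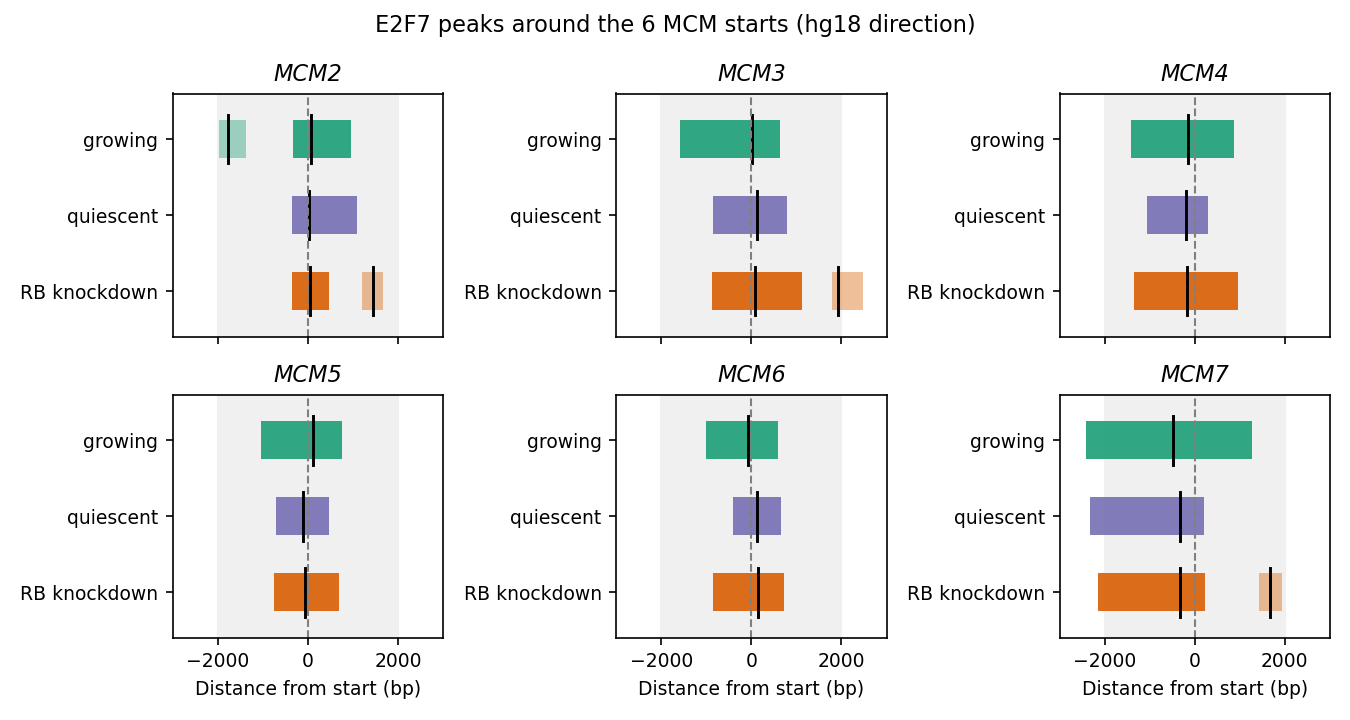
E2F7 peaks around the 6 starts, as distance from the start in bp in the direction of hg18 coordinates, with 1 row per list. Dark bars are the strongest peak by p, pale bars the further peaks, black ticks the summits and grey shading the 2 kb window. The start lies inside the dark bar in all 18 rows, and the pale bars are 4 weaker peaks at MCM2, MCM3 and MCM7.

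Among the E2F7 peaks of a list, those at the MCM starts mostly had high enrichment, most of all in the RB knockdown list. Fold enrichment is the authors' ratio of ChIP tags to local background at a peak, and the p score is 10 times the −log10 of the caller's p-value. In the RB knockdown list the strongest peaks of the 6 starts had 34.7-fold to 154-fold enrichment with a median of 78.8, where the median of all its peaks was 7.13. The quiescent list gave 4.99-fold to 35.1-fold with a median of 14.1, against 6.33 for all its peaks. The growing list gave 6.98-fold to 18.1-fold with a median of 10.6, against 6.56 for all its peaks. By the caller's false discovery rate (FDR) the lists differed in quality. The median FDR of all peaks was 72.6% in the growing, 26.35% in the quiescent and 1.21% in the RB knockdown list. In the growing list 174 of 9481 peaks had an FDR of at most 5%. Medians, quartiles and ranks there are thus set mostly against peaks of high FDR. Put in words, 5 of the 6 starts stood above the upper quartile of fold enrichment in the quiescent list, 4 of 6 in the growing list and 6 of 6 in the RB knockdown list. One control library served all 3 calls, which used different fragment lengths, 200 bp for growing and quiescent and 125 bp for RB knockdown, so the folds are set side by side and their ratios were not taken as a change.

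**Figure D2:**
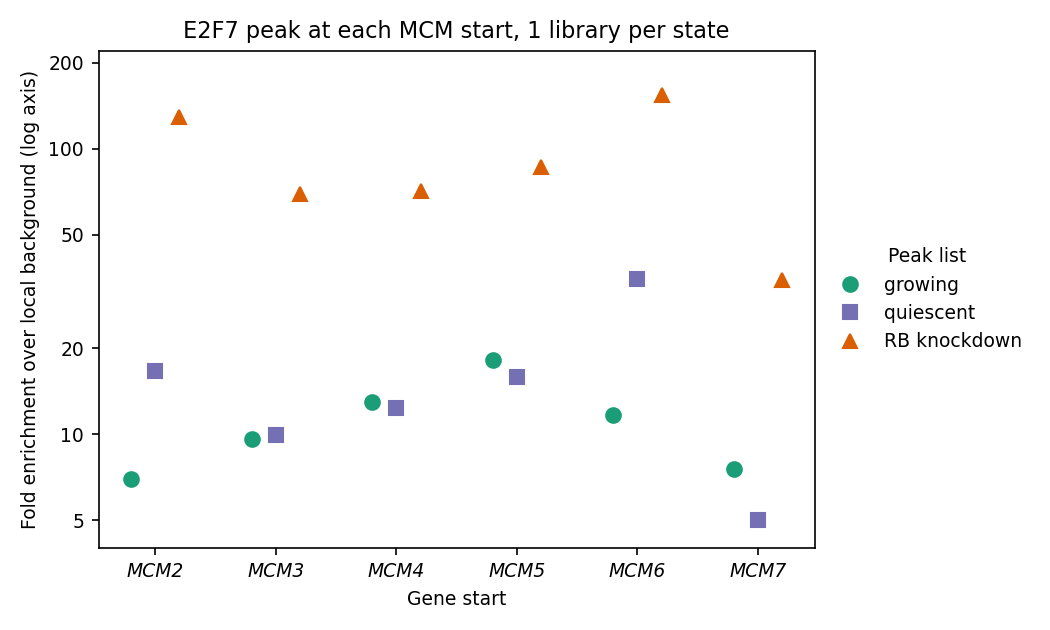
Fold enrichment over local background (log axis) of the strongest peak at each MCM start in the growing, quiescent and RB knockdown lists, 1 point per library. The RB knockdown points sit between 34.7 and 154, and the growing and quiescent points between 4.99 and 35.1.

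MCM2 and MCM5 sit next to each other in the ring and form the gate through which DNA is thought to enter. At MCM2 (hg18 start chr3:128799890) growing cells gave 53 tags at 6.98-fold enrichment, quiescent cells 91 tags at 16.7-fold and RB knockdown cells 304 tags at 129-fold. The growing peak was the weakest of the 6 in its list, with an FDR of 49.03%, while the FDR was 0% in both other lists. The summits of all 3 lists lay 24 to 65 bp downstream of the start, within 41 bp of each other. In the RB knockdown list this peak ranked 2 of 43648 by fold enrichment, and it was also the narrowest of the 6 there, with 834 bp. The start of TPRA1, a gene on the opposite strand, lies 180 bp from that of MCM2 in RefSeq (GRCh38.p14), and the peaks were not assigned to either gene.

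At MCM5 (chr22:34126116) 138 tags at 18.1-fold enrichment were recorded in growing cells, 105 at 15.9-fold in quiescent cells and 472 at 86.5-fold with RB knockdown. MCM5 was the strongest MCM start of the growing list, ranking 8 of 9481 peaks by fold enrichment and 24 by p score. It ranked 162 of 10242 in the quiescent list and 5 of 43648 in the RB knockdown list by fold enrichment. FDR was 0% in all 3. The quiescent and RB knockdown summits lay 105 and 73 bp to the lower-coordinate side of the start and the growing summit 107 bp to the other side, a spread of 212 bp.

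MCM3, the partner of MCM5 in the ring, is known from yeast to contact the loading machinery at origins. At its start (chr6:52257541) growing cells gave 166 tags at 9.60-fold enrichment (FDR 2.22%) and quiescent cells 131 tags at 9.90-fold (FDR 1.61%). With RB knockdown there were 599 tags at 69.6-fold (FDR 0%). It held the most tags of the 6 in the RB knockdown list. All summits were upstream of the start, at 21, 122 and 75 bp in the same order. In each list the MCM3 peak was the highest by fold enrichment within 1 Mb of its start, among 4 growing, 3 quiescent and 30 RB knockdown peaks.

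MCM4, MCM6 and MCM7 form a stable subcomplex, and their interfaces hold the ATPase sites tied to unwinding. At MCM4 (chr8:49036047) the peak held 150 tags at 12.9-fold enrichment in growing cells, 91 at 12.4-fold in quiescent cells and 479 at 71.0-fold in RB knockdown cells. The FDR was 0%, 0.18% and 0%. Summits were the most tightly placed of the 6 genes, 151 to 186 bp to the lower-coordinate side of the start and within 35 bp of each other. On that side RefSeq (GRCh38.p14) places PRKDC, the gene of the catalytic subunit of DNA-dependent protein kinase, 805 bp from MCM4. The MCM4 peaks ran from 1346 to 2324 bp in width, and whether they belong to MCM4, PRKDC or both was not tested.

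MCM6, which binds the loading factor CDT1 in human cells, had the highest fold enrichment of the 6 genes in 2 of the 3 lists. At its start (chr2:136350466) there were 101 tags at 11.7-fold enrichment in growing cells, 124 at 35.1-fold in quiescent cells and 420 at 154-fold with RB knockdown, each with an FDR of 0%. The RB knockdown value was the highest fold enrichment of any peak in that list, and the quiescent value ranked 7 of 10242. In the growing list MCM6 ranked 62 of 9481. Quiescent and RB knockdown summits lay 115 and 138 bp upstream of the start, and the growing summit lay 82 bp downstream of it, 220 bp from the RB knockdown summit. The 12-base E2F sites printed above for MCM6 also lie upstream of its RefSeq start, but those distances are in another build and the starts need not be the same base.

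MCM7 stood apart from the others. Its gene also carries MIR25, MIR93 and MIR106B, microRNAs known to be expressed with it. At the start (chr7:99537363) growing cells gave 193 tags over 3671 bp at 7.54-fold enrichment (FDR 4.32%), and quiescent cells 133 tags over 2542 bp at 4.99-fold (FDR 15.6%). With RB knockdown 422 tags lay in 2368 bp at 34.7-fold (FDR 0%). These were the widest of the 6 starts in every list. The MCM7 peak was also the lowest of the 6 by fold enrichment in the quiescent and RB knockdown lists and the next to lowest in the growing list. In the quiescent list it was below the list's lower quartile of 5.26-fold, at rank 8216 of 10242. The summits lay 482, 314 and 335 bp downstream of the start in growing, quiescent and RB knockdown cells. In RefSeq (GRCh38.p14) AP4M1, on the opposite strand, has a start 246 bp from the most upstream MCM7 start and another 40 bp from a further MCM7 start. Which MCM7 start the hg18 position corresponds to was not determined.

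In each list the genes can be ordered by fold enrichment. In growing cells the order from high to low was MCM5, MCM4, MCM6, MCM3, MCM7 and MCM2. In quiescent cells it was MCM6, MCM2, MCM5, MCM4, MCM3 and MCM7, and in RB knockdown cells also MCM6, MCM2, MCM5, MCM4, MCM3 and MCM7. MCM2 thus held the last place in growing cells and the place after MCM6 in the others. The lists share the control library, and no spread between replicates exists with which to say whether neighbours in an order differ. MCM3 and MCM4 were close in the RB knockdown list (69.6-fold and 71.0-fold), as were MCM2 and MCM5 in the quiescent list (16.7-fold and 15.9-fold) and MCM2 and MCM7 in the growing list (6.98-fold and 7.54-fold).

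The place of the 6 starts among all peaks of a list was given by the percent of peaks with a lower value. In the RB knockdown list all 6 exceeded at least 99.88% of peaks by p score and at least 99.85% by fold enrichment. By fold enrichment they took ranks 1, 2, 5, 10, 12 and 64. Many of the leading peaks were tied by p score: 14 carried a value of exactly 3100, MCM3, MCM5 and MCM6 among them, and 3 were above it, MCM2 among these, so no order is read from the p score at that end. In the growing list 5 of the 6 exceeded at least 98.5% of peaks by p score and MCM2 exceeded 92.9%. By fold enrichment MCM2 and MCM7 exceeded 60.8% and 74.3% there, and the other 4 at least 97.3%. In the quiescent list 5 of the 6 exceeded at least 89.1% by p score and MCM7 exceeded 65.9%. Ranks from lists of different length do not show a change between states.

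**Figure D3:**
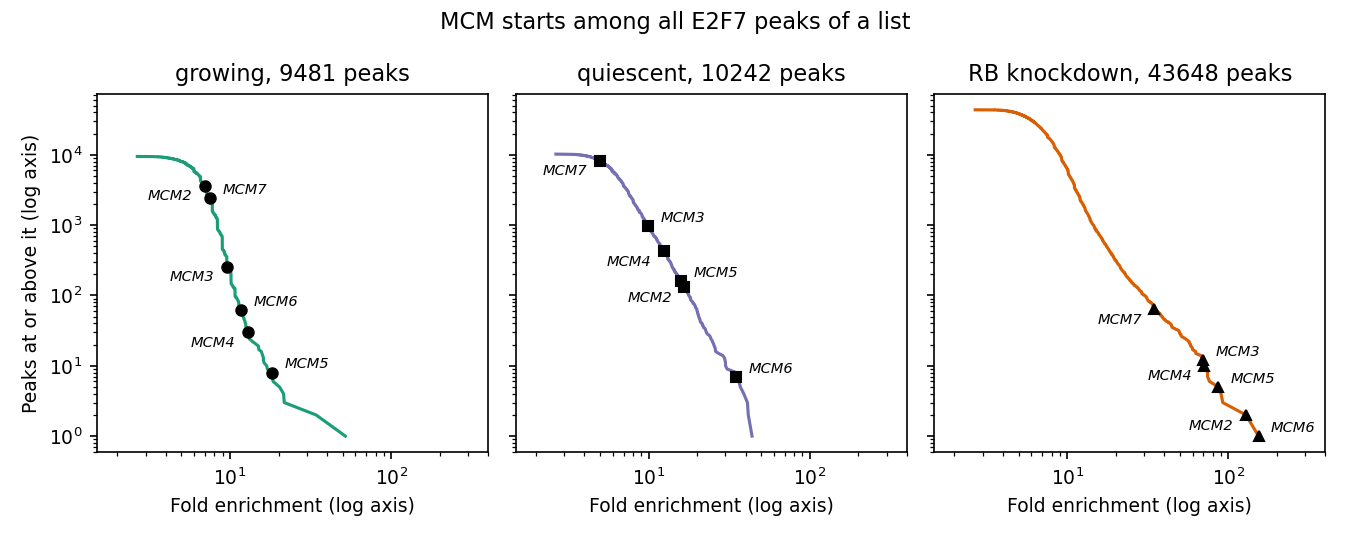
Number of peaks at or above a fold enrichment (both axes log) for all peaks of each list, with black symbols at the 6 MCM starts. In the RB knockdown panel MCM6 and MCM2 are at ranks 1 and 2 of 43648 peaks, and in the quiescent panel MCM7 lies at 4.99-fold, at rank 8216 of 10242.

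Peaks as tall as these were mostly shared between lists. In the RB knockdown list 64 peaks reached the 34.7-fold of MCM7 or more. Of these 64, which include the 6 MCM peaks, 85.9% overlapped a growing peak, 82.8% a quiescent peak and 70.3% (45 peaks) both. All 6 MCM peaks were among the 45. Presence in all 3 lists was therefore common among the tallest RB knockdown peaks, with the cutoff set by the lowest MCM peak. The share of all 43648 RB knockdown peaks that overlap both other lists was not computed. The 0.222% of genome tiles with a peak of all 3 lists is no like comparison, since most tiles hold no RB knockdown peak.

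Tag counts give the depth behind these values. After duplicates were limited, 22628990 tags of growing cells, 25212239 of quiescent cells and 23379790 of RB knockdown cells were used for calling. With 95% exact Poisson intervals, which cover counting error only, the RB knockdown count was above both others without overlap at 6 of 6 starts. For MCM2, the lowest, the intervals were 271 to 340 tags against 39.7 to 69.3 in growing and 73.3 to 112 in quiescent cells. Peaks were bounded by the caller in each library, so counts move with width. Per kb of peak and per 1000000 filtered tags, the 6 peaks had densities of 1.82 to 3.41 in growing cells, 2.08 to 4.66 in quiescent cells and 7.62 to 15.6 with RB knockdown. The RB knockdown interval was again above both others at 6 of 6 starts. Intervals were drawn at the 6 MCM starts only. How often they are apart among all shared peaks was not computed. The 6 of 6 is therefore not shown to be particular to these starts. Between growing and quiescent cells the density intervals were apart at MCM6 alone, with 2.30 to 3.43 in growing and 3.87 to 5.55 in quiescent cells. The raw intervals at MCM6 overlapped, with 82.3 to 123 tags in growing and 103 to 148 in quiescent cells. Its called peak was 1582 bp wide in growing and 1056 bp in quiescent cells, so that separation appeared only after division by width and depth. The raw counts of these lists were apart at MCM4 and MCM7, with more in growing cells, and at MCM2, with more in quiescent cells, but there the densities overlapped. The median density of all listed peaks was 1.46 in growing cells, 1.7 in quiescent cells and 2.41 with RB knockdown. The higher density with RB knockdown was thus seen in the list as a whole, to a smaller extent than at the MCM starts, and how much of it comes from the library was not tested.

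**Figure D4:**
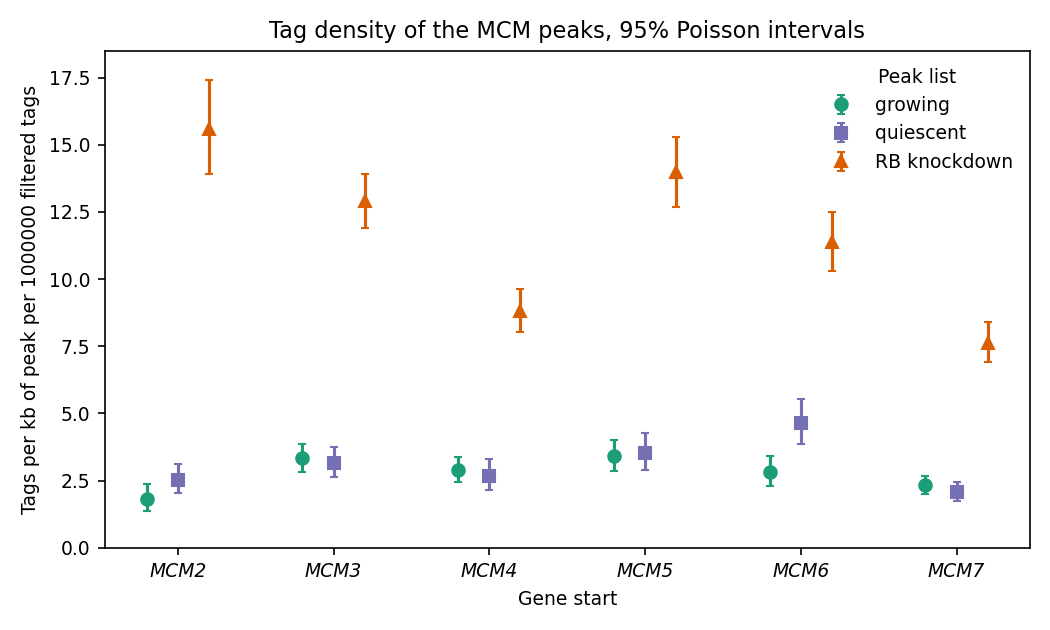
Tags per kb of peak per 1000000 filtered tags for the strongest peak at each MCM start, with 95% Poisson intervals for counting error, 1 library per state. RB knockdown values lie between 7.62 and 15.6, above all growing and quiescent values, which lie between 1.82 and 4.66.

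Beyond the strongest peaks, 4 further peaks fell inside the windows. At MCM2 these were a growing peak of 19 tags (5.98-fold, FDR 71.02%) and an RB knockdown peak of 23 tags (7.25-fold). At MCM3 an RB knockdown peak of 29 tags (6.40-fold) began 1782 bp from the start, the last to be counted, and at MCM7 one of 70 tags (6.97-fold) began 1425 bp away. The nearest peak left out was an RB knockdown peak of 22 tags (9.46-fold), 2511 bp from the MCM5 start. The further peaks with RB knockdown reached at most 7.25-fold, where the strongest peaks had 34.7-fold or more, whereas in growing cells at MCM2 the values were close (5.98-fold and 6.98-fold). Between 2 and 20 kb from the 6 starts there was 1 growing peak (4.54-fold), 1 quiescent peak (9.13-fold) and 11 RB knockdown peaks of 4.28-fold to 12.3-fold. In the RB knockdown list the start's own peak was the highest within 1 Mb for all 6 genes, and the next highest in those regions ranged from 10.05-fold near MCM6 to 27.1-fold near MCM5. In the growing list this held for MCM3, MCM4, MCM5 and MCM6, and in the quiescent list for MCM3, MCM4 and MCM6. The quiescent MCM7 peak ranked 18 of 25 in its region.

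Stricter thresholds removed some of the starts. At a p score of at least 100, 6 of 6 starts stayed in the growing list (0.157% of tiles), 5 in the quiescent list (MCM7 left out; 0.507% of tiles), 6 in the RB knockdown list (1.95% of tiles) and 5 in all 3 (0.0698% of tiles). At an FDR of at most 5%, 5 of 6 starts stayed in the growing list (MCM2 left out; 0.0394% of tiles), 5 of 6 in the quiescent list (MCM7 left out; 0.34% of tiles) and 6 of 6 in the RB knockdown list (6.01% of tiles). MCM3, MCM4, MCM5 and MCM6 stayed in all 3, against 0.0276% of tiles. When 10-fold enrichment was required, the growing list kept MCM4, MCM5 and MCM6 alone (0.0354% of tiles), the quiescent list kept 4 (0.165% of tiles) and the RB knockdown list kept all 6 (0.975% of tiles). Those 3 growing starts were also the ones kept in all lists (0.00989% of tiles).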

How the data were processed

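E2F7 ChIP-seq peak lists of 3 libraries, 1 per state, were used. The submitters' processing notes name Bowtie and the hg18 build, with no Bowtie version. MACS 1.4.1 was run by the authors on each library alone, per the file headers, against 1 common control of 22107968 filtered tags, at a p cutoff of 1e-05, keeping at most 2 tags per position and scaling the smaller library to the larger. Which labelled sample was the control is not stated there. The deposited values per peak were the tag count, the p-value as 10 times its −log10, the fold enrichment, the FDR in percent, and the width and summit in bp; they are the authors' values and were not rescaled.

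The 6 start positions were given in hg18 and were not checked against an hg18 annotation. A peak counted for a start when it overlapped the 2 kb window by at least 1 bp, and the one of highest p score (10 times the −log10 p) was called the strongest. Summits were placed at the peak start plus the deposited offset, counted from 1. Upstream and downstream were given for the 4 genes whose strand was read from the RefSeq promoter table. Background came from 4001 bp tiles up to the last peak end of each chromosome. Intervals for tags are 95% exact Poisson intervals. Overlap counting was tested on simulated peaks. Tools were Python 3.11.15, pandas 2.3.3, NumPy 2.4.6, SciPy 1.17.1 and matplotlib 3.10.9. All 6 members were named by rule. Members, lists and settings were chosen with earlier results of these data known.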

Additional observations from a re-analysis of the deposited data

How the results depend on the processing

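All counts of starts with a peak stayed at 6 of 6 in every list with windows of 1 and 5 kb, with the start required inside the peak, with the summit required in the window, and with lists reduced to the 9481 strongest peaks. They stayed at 6 for the quiescent and RB knockdown lists together without the growing list, an alternative added after seeing the data. The share of genome tiles was not computed for any of these settings, so these counts stand without a background. At a p score (10 times the −log10 p) of at least 100, 6 growing (0.157% of tiles), 5 quiescent (0.507%), 6 RB knockdown (1.95%) and 5 starts in all 3 lists (0.0698%) remained, MCM7 being the one lost. With 10-fold enrichment required, the growing count (0.0354% of tiles) and the count in all 3 lists (0.00989%) each fell to 3. The lowest percent of peaks below an MCM start went from 92.9% by p score to 60.8% by fold enrichment and 85.7% by tags in the growing list. It went from 65.9% to 19.6% and 79.4% in the quiescent list, and from 99.88% to 99.46% by tags in the RB knockdown list. Taking the peak with the nearest summit in place of the strongest gave the same peak in all 18 cases. No paired analysis was possible because each state has 1 library. The lowest count behind a strongest peak was 53 tags, at MCM2 in the growing list.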
